A study of Mus musculus with 6 samples.

Results

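CRE double variants with a changed central CpG are sequences in which 1 of the 2 central bases of a CREB1 site is replaced together with a second base of the same site. They derive from the composite 16-mer ETS-CRE site, in which positions 1 to 8 carry an ETS motif and positions 9 to 16 carry the cAMP response element (CRE), with positions counted from the 5′ end of the 16-mer. The members were chosen by sequence alone, as all doubles with 1 change at position 12 or 13 and the other at position 10, 11, 14, 15 or 16. This gives 90 variants, each printed on the array in 4 placements (starting at base 11, called middle, or at base 21, called inner, each on the forward and the reverse strand). The members are thus 360 of the 6889 custom sequences of the array, and 90 of the 1080 doubles of the 16-mer that were measured in these placements.

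CREB1 is a bZIP factor that binds DNA as a dimer. Its palindromic site is read as 2 TGAC half-sites on opposite strands that meet at the central CpG, the dinucleotide that is also the target of DNA methylation in cells. GABPα is an ETS-family factor whose winged helix recognises a GGAA core, and ETS and CRE motifs lie next to each other in many housekeeping promoters. In a protein binding microarray, a tagged protein is applied to double-stranded DNA probes, and the fluorescence of each spot reports how much of the tag it holds.

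The series has 3 groups of 2 arrays each, all with mouse DNA-binding domains made by in vitro translation. In the group called GABPα alone, GABPα carried an N-terminal GST tag, from 570 ng of plasmid in 250 µl. In the group called GABPα with CREB1, 66 ng of a plasmid for CREB1 without the tag was in the same reaction, so the signal comes from GABPα. In the group called CREB1 alone, GST-tagged CREB1 was made from 570 ng of plasmid and no GABPα was present. All reactions ran at 37 °C for 2 h and 230 µl was applied. The proteins are isolated DNA-binding domains and not whole factors, and the labels give the domain type as bZIP for all samples although GABPα is an ETS protein. No label says whether both arrays of a group had their own protein preparation, so p-values measure the spread between these arrays, which may be technical. That spread was estimated over all 3 groups together, or over the 2 groups with tagged GABPα where these were compared. Replicates 1 of the groups with tagged GABPα shared slide 1 and replicates 2 shared slide 2, while each CREB1 array lay on a slide of its own (slides 3 and 4).

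The sequences below show the site, the members on which the results turn and the probes that hold them, 5′ to 3′. In the first, the CRE is in capitals.
Intact site: accggaagTGACGTCA
In the members that follow, capitals mark the 2 changed bases. The first 3 kept the most CREB1 signal, and the first and the second of them are mirror images in the CRE.
C12T+T14A: accggaagtgaTgAca
A11T+G13A: accggaagtgTcAtca
C12T+C15A: accggaagtgaTgtAa
The next were the lowest with CREB1 and the highest with GABPα alone.
A11G+G13C: accggaagtgGcCtca
G13T+A16C: accggaagtgacTtcC
The 60-base probes show the flanks that surround the site, with the intact 16-mer in capitals in the middle reverse and the inner forward placement.
Intact probe, middle reverse: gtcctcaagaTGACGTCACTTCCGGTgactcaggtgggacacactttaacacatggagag
Intact probe, inner forward: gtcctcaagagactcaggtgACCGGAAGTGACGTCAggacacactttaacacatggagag
In the last probe, the capitals mark a TTCCGG that G13T+A16C forms with the flank.
G13T+A16C probe, inner forward: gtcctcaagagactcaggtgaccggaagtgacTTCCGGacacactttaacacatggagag

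Signals are background-subtracted intensities in arbitrary units on a linear scale, averaged on the log2 scale over 15 to 24 spots for each member sequence and array. Their number limits the precision. An effect is the log2 intensity of a variant minus that of the intact site on the same array and in the same placement, averaged over the 4 placements, so that −1 is a loss to 50% of the intensity. The limma fit gave all variants in all 3 groups 1 common standard error of 0.13 for an effect. It is not the spread of a group's own 2 arrays, which differed by group. For the single change C12G, the SD was 0.02 in GABPα alone, 0.03 in GABPα with CREB1 and 0.30 in CREB1 alone. The intact site, as the geometric mean over the 4 placements, read 2639 and 5377 on the GABPα alone arrays, 4733 and 5553 on the GABPα with CREB1 arrays, and 47306 and 44878 on the CREB1 arrays. A sequence counts as above background if more than 0.5 of its spots passed the scanner software's test, which was set at 13 standard deviations. Between 16.7% and 59.3% of the sequences of an array passed.

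CREB1 binding was lost to a large extent in every member. All 90 read below the intact site on both CREB1 arrays, with mean effects from −5.06 to −2.22 and a median of −4.15, and all 90 were called lower by limma's moderated test after Benjamini-Hochberg adjustment. In this comparison 78.8% of the 1128 single and double variants were called lower, and the median effect over all of them was −1.36. The 90 doubles of CRE positions 10, 11, 14, 15 and 16 with an intact centre had a median of −2.88, and 55 of them stayed above background in all placements on both arrays. Of the doubles with a changed centre only 8 did.

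Those 8 all carried C12T or G13A, the transitions that turn the CpG into TpG or CpA, with 4 members each. C12T+T14A, with 8589 and 11386 units on the 2 CREB1 arrays, kept the most signal, at an effect of −2.22 ± 0.34 (SD, n = 2), a loss of at least 4.66-fold. It is a lower bound because spots of the intact site were saturated on the reverse strand of the CREB1 arrays, up to 25.5% of them in the inner reverse placement, and this holds for all CREB1 losses that average the placements. C12T+C15A read 8071 and 11260 units, an effect of −2.27 ± 0.39 (SD, n = 2). A11T+G13A read 8115 and 9994 units, an effect of −2.36 ± 0.27 (SD, n = 2). These 3 members differed from each other by less than their own spread between arrays, and the next in order, G13A+C15A, lay at −2.88 ± 0.48 (SD, n = 2). The other 4 were G13A+A16G at −3.04, C12T+A16G at −3.07, G13A+C15G at −3.26 and C12T+A16T at −3.75. In the middle forward placement C12T+A16T spells TGACTCA with the flank. In the inner reverse placement G13A+C15G spells a GTCA with the flank. The part of these copies in the signals was not tested.

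For the other 82 members at least 1 placement was not well above background on at least 1 array, so their mean effects rest in part on dim values and are less certain. The lowest, A11G+G13C, read 1188 and 1607 units, with 1 of 4 placements above background on each array. Set against the lowest signal above background where a placement was dim, it had the largest bound on the loss among the members. A11G+G13T followed with a loss of at least 26.9-fold and C12A+A16T with one of at least 26.6-fold. All 3 carry a transversion at the centre.

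The middle reverse placement gave a measured value for all members. There all 90 were above background on both CREB1 arrays, against 26 and 52 in the middle forward, 8 and 49 in the inner forward and 55 and 82 in the inner reverse placement. In it the effects ran from −4.64 to −1.75 on array 1, where the median loss was 12.3-fold, and from −4.16 to −1.31 on array 2, where it was 7.28-fold. In the authors' deposited table the median member kept 9.28% and 15.1% of the intact intensity there. The order of the members was shared by the 2 arrays, with a Pearson correlation of 0.949 and a Spearman correlation of 0.957 over the 90 members, which share the intact reference, flanks and arrays. C12T+C15A, at 17154 and 21872 units against 57820 and 54170 for the intact site, had the highest mean effect of the members. C12T+T14A, at 17214 and 21041 units, and A11T+G13A, at 15777 and 17397 units, came next, so that the same 3 members led here and over all placements. In this placement 23.9% of the intact site's spots were saturated on array 1 and a like share on array 2, while no spot of a member was, so that losses against it are understated.

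The flanks differ between placements in a way that bears on the half-site. In the middle reverse and the inner forward placement, the 16-mer and the flank together spell 1 more TGAC, outside the CRE. With it every one of the 90 members holds a TGAC or its reverse complement GTCA in the probe, against 53 in each of the other placements. The middle reverse had the most members above background and the inner forward the fewest. The flank copies are not alike. At the copy, every member reads TGACTCA in the middle reverse placement and TGACCGG in the inner forward placement. All middle reverse values given here, correlations included, come from probes with this TGACTCA. The part of either flank copy in the signals was not tested.

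CREB1 levels differed by the central change. Members with C12T had a median CREB1 effect of −3.59 and those with G13A of −3.52, with 15 members for each change. C12G and G13C gave medians of −4.24 and −4.18, and C12A and G13T gave −4.49 and −4.55. The singles fell into the same 3 pairs, with the order inside each pair turned, at −1.45 ± 0.14 for C12T, −1.58 ± 0.14 for G13A, −2.47 ± 0.31 for C12G, −2.49 ± 0.30 for G13C, −3.44 ± 0.54 for G13T and −3.49 ± 0.42 for C12A (SD, n = 2 each). Within each central change the partner widened the range. With C12T the extremes were C12T+T14A at −2.22 and C12T+A16C at −4.10, with G13A they were A11T+G13A at −2.36 and A11C+G13A at −4.22, and with C12G they were C12G+C15A at −3.43 and C12G+T14C at −4.77. With the other 3 changes the extremes were A11T+C12A at −3.79 and C12A+A16T at −4.80, G13C+C15A at −3.66 and A11G+G13C at −5.06, and G13T+T14A at −3.72 and A11G+G13T at −4.99. Of these 12 members, C12T+T14A and A11T+G13A were above background in all placements, and dim placements limit the other values.

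A second change lowered CREB1 signal further in every member. The double minus its central single ran from −2.65 to −0.28 with a median of −1.52, and all 90 steps were called lower by limma, against 57.2% of the 2160 steps over all doubles. Every member also read below both of its singles on both arrays. Among the 8 measured members the smallest steps were C12T+T14A at −0.77, A11T+G13A at −0.78 and C12T+C15A at −0.82, with adjusted p of 0.000485, 0.000134 and 0.000912 in limma. The largest were C12T+A16T at −2.29, G13A+C15G at −1.68 and C12T+A16G at −1.62. The singles A16T and A16G read −0.79 and −0.44, so each change had a larger step after C12T than in the intact site.

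Half-sites were counted by sequence, as TGAC on either strand within the 16-mer. Changes within 1 arm of the palindrome leave the other half-site whole, which holds for 45 members. Their median CREB1 effect was −3.93. The other 45 have a change in each arm, and their median was −4.34. In 40 of these no TGAC is left, and 5 spell 1 at another place, so that 50 of the 90 members (55.6%) hold a half-site, against 88.0% of all 1080 doubles. C12T+T14A spells TGAC at positions 12 to 15 and A11T+G13A spells GTCA at positions 10 to 13. These are 2 of the 3 members that kept the most signal. The other 3 spell GTCA at positions 8 to 11, partly in the ETS motif, and read −3.82 for G10C+G13A, −4.31 for G10C+G13C and −4.69 for G10C+G13T. C12T+C15A, the other member among the top 3, holds no TGAC, and no member that kept an original half-site read above −2.88. A TGAC by letters within the 16-mer was thus neither present in all of the top 3 members nor found in these alone. Copies formed with the flank were not counted here.

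The 2 effects of a double did not add up for most measured members. A departure is the effect of the double minus the sum of the effects of its singles on the same array. Of the 8 members above background, 6 fell below the sum and 2 lay above it by limma. Over all 1080 doubles 24.2% were called lower and 7.04% higher, 31.2% in all. Of the 837 doubles above background together with both singles, 9.92% were lower and 6.57% higher. The lowest of the 8 members were C12T+A16T at −1.51 ± 0.30, C12T+A16G at −1.18 ± 0.20 and G13A+C15G at −1.06 (SD, n = 2). The 2 higher were the mirror images A11T+G13A at 0.52 ± 0.04 and C12T+T14A at 0.25 ± 0.06 (SD, n = 2). Over all 90 members 57 were called lower and 14 higher, but here the background sets a floor for the double, and saturation of the intact site affects the sum: with forward probes alone, where no spot of the intact site was saturated, 34 were lower and 37 higher. A11T+G13A itself turned to −0.28 on the reverse strand alone, where the adjusted p in limma was 0.079.

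GABPα alone read all 90 members close to the intact site. All were above background in every placement on both arrays, with effects from −0.32 to 0.47 and a median of 0.01, against a median of −4.06 over all 1128 variants. Other CRE doubles read alike. The 90 with an intact centre were all above background with a median of −0.10, and the 9 of positions 12 and 13 had a median of 0.10. On both arrays 69 of the 90 lay within 0.2 of the intact site. By limma 9 members were called higher, where 0.887% of all variants were, and 2 lower, where 82.6% of all variants were (11 members against 83.5% in either direction). Of the 233 variants above background in every placement, 4.29% were higher and 15.9% lower. The members thus hold 9 of the 10 higher calls among all variants, and the single G13T is the other. The order was shared by the 2 arrays, with a Pearson correlation of 0.926 over the 90 members.

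The higher calls gathered on G13T, a transversion that turns the central CpG into CpT. Of the 15 members with G13T, 14 read above the intact site on both arrays, 7 were called higher and the median was 0.24. The single G13T, which these members share, read 0.27 ± 0.04 (SD, n = 2). G10A+G13T, with 3442 and 6786 units, read 0.36 ± 0.03 and G13T+A16T, with 3405 and 6782 units, read 0.35 ± 0.02 (SD, n = 2). The adjusted p was 0.00800 and 0.00959 in limma. The 2 lower calls were C12G+T14G at −0.32 ± 0.01 and G10C+G13C at −0.30 ± 0.09 (SD, n = 2), with adjusted p of 0.0204 and 0.0296. Partners at position 15 stood at a median of 0.20, with 4 of 18 called higher. C12A+C15T, the lowest of the higher calls, was at 0.27 with an adjusted p of 0.0492. No member passed limma's test with the deposited table (0 at an unadjusted p under 0.05) or with dim sequences left out of the fit (1 unadjusted). Without replicate 1 of GABPα alone 1 member passed, without replicate 2 none did (1 unadjusted), and without either CREB1 array 17 did.

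The highest member, G13T+A16C, carries a second ETS core. It read 3523 and 7733 units against 2639 and 5377 for the intact site, an effect of 0.47 ± 0.08 (SD, n = 2) with an adjusted p of 0.000461 in limma, a 1.39-fold gain. Its changes spell TTCC at positions 13 to 16, which is GGAA on the other strand, and it is the only member with an additional GGAA, as are 0.463% of all doubles in the 16-mer. In the inner forward placement the next 2 flank bases are GG, so that the probe reads TTCCGG, the reverse complement of the CCGGAA of the intact ETS motif. No other double in that placement gains a CCGGAA (1 of 1080, 0.0926%). There its intensity was 4271 and 9533 units against 2419 and 4877 for the intact site, effects of 0.82 and 0.97, and the next highest member reached 0.52 and 0.45. In the other 3 placements, which hold the added GGAA but lack the GG, its effects lay between 0.19 and 0.43 on the 2 arrays. The single G13T, without the added GGAA, read 0.27 over all placements. In GABPα alone the departure of G13T+A16C from the sum of its singles was not called by limma.

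G13A+A16C makes the related ATCC, which is GGAT on the other strand, and did not pass. It read 2728 and 5674 units, an effect of 0.06 ± 0.02 (SD, n = 2) with an adjusted p of 0.678. It is the only member that gains a GGAT, which 3.70% of all doubles do within the 16-mer. In the inner forward placement, where the flank makes it ATCCGG, its effects were 0.23 and 0.29 and it ranked 9th and 4th of the 90 members on the 2 arrays. In the inner reverse placement its effects were −0.22 and −0.16.

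With CREB1 in the reaction, GABPα bound all 90 members less than the intact site. Every member read lower on both arrays, with effects from −1.52 to −0.34 and a median of −1.09, and all 90 were called lower by limma, as were 98.8% of all variants. The 90 CRE doubles with an intact centre read alike, with a median of −1.11 and 81 called lower. In 89 of the 90 all placements were above background on both arrays, C12G+T14G being the exception. On both arrays 79 of the 90 read below the lower of their 2 singles. The largest measured losses were C12G+T14C at −1.44 ± 0.13, G10C+C12G at −1.43 ± 0.11 and G10C+C12A at −1.42 ± 0.10 (SD, n = 2), a 2.67-fold to 2.72-fold loss. C12G+T14C read 1632 and 2173 units against 4733 and 5553 for the intact site.

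The mildest loss was that of C12T+C15A, which CREB1 alone also bound among the best. It read 3600 and 4566 units, an effect of −0.34 ± 0.08 (SD, n = 2), a 1.26-fold loss. G13A+C15A followed at −0.52 ± 0.11 and G13T+C15A at −0.62 ± 0.13 (SD, n = 2). C15A was the mildest partner, with a median of −0.68 over its 6 members, and partners at position 15 together stood at −0.84, against −1.12 at position 10, −1.18 at 11, −1.13 at 14 and −1.03 at 16. The single C15A read 0.07 ± 0.10 with CREB1 present, (SD, n = 2), and G10C, the lowest of the partner singles, read −1.16. By centre the medians ran from −1.22 for C12G to −0.89 for G13T, and C12T and G13A stood between at −0.98 and −0.99. G13T, whose members were among the lowest with CREB1, was thus the mildest centre for GABPα in the mixed reaction as well as in GABPα alone.

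Set against its own effect in GABPα alone, each member lay further below the intact site in the presence of CREB1. The comparison thus also takes in the change of the intact site itself, given below with the scaled signals. The effect with CREB1 minus the effect in GABPα alone ran from −1.32 to −0.58 with a median of −1.11, and was negative on both slides for all 90, with medians of −1.17 on slide 1 and −1.07 on slide 2. By limma all 90 were called lower, as were 81.6% of all variants (93.5% in either direction), whose median was −0.84. The smallest differences were C12T+C15A at −0.58, G13A+C15A at −0.77 and C12T+T14A at −0.79, and the largest were C12G+T14C at −1.32, G10A+G13C at −1.31 and C12A+A16G at −1.26 (standard error 0.15 for each). G10A+G13C shows the form of the difference: it read 2642 and 5301 units with GABPα alone, where the intact site read 2639 and 5377, and 1868 and 2267 units with CREB1, where the intact site read 4733 and 5553. In the first group the member and the intact site differed by less than the spread between arrays, and in the second they did not overlap. With the deposited table no member passed limma's test after adjustment and 89 passed at an unadjusted p under 0.05, while the median was −0.94.

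The doubles lay beyond their singles in this difference too. The 6 central singles had a median of −0.67, the 15 partner singles of −0.34, and the 90 doubles with an intact centre of −1.05. Among the members the difference tended to be smaller where CREB1 alone had kept more signal, though A11T+G13A, at −1.15, lay near the median. Over the 90 members the CREB1 effect in the middle reverse placement and the difference had a Pearson correlation of 0.746 and a Spearman correlation of 0.716. The correlation with the effect of GABPα alone was −0.01 and 0.02. With the effect of GABPα in the mixed reaction itself it was weaker than with the difference, at 0.418 (Pearson) and 0.368 (Spearman). Without the 3 members that CREB1 bound best, these were 0.365 and 0.353. The members share changed bases, flanks and arrays, so these values only describe them.

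Signals were also scaled to each array's 75th percentile over the 1143 sequences above background on all 6 arrays. They compare the same member between the 2 GABPα reactions without the intact site as the reference. The scaling set requires signal with CREB1 alone too, which only 8 members had in all placements. With CREB1, the scaled log2 signal of the members changed by a median of −0.46, and 85 of the 90 were called lower by limma, where 59.8% of all sequences were. It was negative on both slides for 88, with medians of −0.35 and −0.59. C12G+T14C changed by −0.67, G10A+G13C by −0.66 and C12A+A16G by −0.60. The 5 members that did not pass were C12T+C15A at 0.07, G13A+C15A at −0.12, C12T+T14A at −0.14, C12G+C15A at −0.15 and G10T+G13A at −0.16. The central singles had a median of −0.02 and the partner singles of 0.31. Other CRE doubles also fell. The 90 with an intact centre had a median of −0.40, with 59 called lower and 14 higher. The 9 of positions 12 and 13 had a median of −0.42, and all 9 were called lower. The intact site rose on this scale, from −0.64 and −0.59 on the GABPα alone arrays to 0.17 and −0.10 with CREB1. The effect differences above therefore hold a rise of the intact site as well as the change of the members. These calls rest on the scaling: without it no member passed limma's test, adjusted or unadjusted, although the median was −0.67. Leaving out a GABPα alone array left 41 calls without replicate 1 and 38 without replicate 2.

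Non-additivity in the mixed reaction differed in its counts by the position of the partner. For GABPα with CREB1, 32 members lay above the sum of their singles and 17 below it by limma, against 52.2% and 25.4% of all doubles (77.6% in all). All doubles include many near background. Of the 262 doubles above background together with both singles, 22.9% were higher and 12.2% lower, and 89 of these were members. With partners at positions 10 and 11, which lie on the ETS side, 27 of 36 were higher and none lower. With partners at position 16, at the far end, 11 of 18 were lower and 1 higher. Partners at positions 14 and 15 were mixed, with 2 lower and 3 higher of 18 at 14 and 4 lower and 1 higher of 18 at 15. The highest were G10A+G13T at 0.84 ± 0.12, G10C+G13T at 0.83 ± 0.05 and A11C+C12A at 0.81 ± 0.06 (SD, n = 2). G10A+G13T, for example, read −0.86, while its singles read −0.94 for G10A and −0.75 for G13T, so that the second change cost nothing beyond the first. The lowest were C12T+A16C at −0.39, C12T+A16T at −0.38 and C12T+A16G at −0.38. The balance depended on the strand of the probe: on the reverse strand alone 17 were higher and 27 lower, and in the deposited values 24 were higher and none lower. In GABPα alone 1 member departed, A11G+G13C at 0.21 with an adjusted p of 0.0478 in limma, where 33.1% of all doubles were higher (36.5% in either direction). Of the 189 doubles above background there together with both singles, 1.59% were higher.

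The CRE reads the same on both strands, so 72 of the members form 36 mirror pairs that have the same CRE in opposite orientation to the ETS motif. The difference is given as the member with its partner at 10 or 11 minus its mirror with the partner at 15 or 14. For CREB1 alone the first member was lower in 17 of 36 pairs and higher in none by limma, against 65.9% lower over all 132 mirror pairs of the 16-mer, and the median difference was −0.13. For GABPα with CREB1 it was lower in 19 pairs and higher in 4, against 76.5% and 5.30%, with a median of −0.22. For GABPα alone, a comparison added after the data were seen, it was lower in 13 and higher in 5, against 63.6% and 6.06% (69.7% in all). Of the 72 pairs with both sequences above background in GABPα alone, 36.1% were lower and 9.72% higher. With CREB1 present, 58.8% and 7.35% of 68 such pairs were. In CREB1 alone only 1 of the 36 member pairs had both sequences above background.

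The 2 kinds of pair differed in their counts. Where position 10 stood against 15, the member near the ETS motif was lower with CREB1 present in 15 of 18 pairs and higher in none, with a median of −0.36. Where position 11 stood against 14, it was lower in 4 and higher in 4, with a median of −0.05. In GABPα alone the counts were 12 lower and 0 higher for the first kind, and 1 lower and 5 higher for the second. The largest differences with CREB1 present were G10C+C12A minus G13T+C15G at −0.54, G10T+C12A minus G13T+C15A at −0.51 and A11T+G13A minus C12T+T14A at −0.50, with adjusted p of 0.000185, 0.000505 and 7.96e-05 in limma. The first 2 of these pairs also differed in GABPα alone, at −0.45 and −0.41. The 4 pairs in the other direction, at 0.28 to 0.31, were all of A11C or A11G against T14G or T14C with a transversion at the centre, and 1 of them holds C12G+T14G, which had a dim placement.

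The pair A11T+G13A and C12T+T14A holds 2 of the 3 members that kept the most CREB1 signal. CREB1 alone read them at −2.36 and −2.22, a difference of −0.13 with an adjusted p of 0.0758, and GABPα alone read them at −0.10 and 0.04, with an adjusted p of 0.0650. With CREB1 present, GABPα read A11T+G13A at −1.25 ± 0.03, with 1964 and 2379 units, and C12T+T14A at −0.75 ± 0.01, with 2833 and 3278 units (SD, n = 2). Taken as the pair difference with CREB1 minus that in GABPα alone, it was −0.36, with −0.38 on slide 1 and −0.34 on slide 2 and an adjusted p of 0.0382 in limma. It was the only 1 of the 36 pairs to pass, where 15.9% of all pairs did (14.4% lower). This comparison was added after the data were seen, and no pair passed limma's test with the slide as a block (2 at an unadjusted p under 0.05) or without either array of GABPα with CREB1 (0 unadjusted without replicate 1 and 2 without replicate 2).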

How the data were processed

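The authors deposited 1-colour (Cy5) spot intensity, which Agilent Feature Extraction 12.0.1.1 background-subtracted and detrended, per the file headers. The authors' deposited value table also holds intensity on a linear scale: each of its 6891 entries per array equals, within 0.01, the median over a probe name's spots of median signal minus median local background, with column medians from 241.75 to 17398.0. It is neither centred nor turned in direction. From the processed intensity, log2 values were averaged over spots, leaving out control spots and outlier spots (2.26% to 4.55% per array), and differences from the intact site were taken within array and placement. Fits used limma 3.58.1 in R 4.3.3 (lmFit and eBayes, with 2 arrays a group), with Benjamini-Hochberg adjustment at 0.05 over all 1128 variants, 1080 doubles, 2160 steps, 132 mirror pairs or 1129 scaled sequences. The fits were tested on simulated data. An exact permutation test of 2 arrays against 2 was not used, since it cannot pass. Saturated spots were kept. Members and lists were chosen with earlier results of these data known. Members named with values were the 3 highest and 3 lowest above background that passed in each comparison, the extremes of CREB1 effect for each central change, members that gain a GGAA or GGAT, and the mirror pairs with the 3 largest differences. The members discussed by half-site, and those that did not pass in the scaled comparison, were chosen after their values were seen. The CRE motif searched by letters was TGAC and the ETS motifs were GGAA with or without a leading CC, and GGAT, on both strands.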

Additional observations from a re-analysis of the deposited data

Results flagged for a closer look

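The effects of the members differed between GABPα with CREB1 and GABPα alone, and the difference itself was tested by limma: 90 of 90 members passed, as did 93.5% of all variants in either direction. Among those measured in all placements, the smallest differences were −0.58 for C12T+C15A, −0.77 for G13A+C15A and −0.79 for C12T+T14A. The largest were −1.32 for C12G+T14C, −1.31 for G10A+G13C and −1.26 for C12A+A16G. In the same test between the 2 reactions, 1 of 36 mirror pairs passed, A11T+G13A minus C12T+T14A, at −0.36 and negative on both slides, against 15.9% of all 132 mirror pairs (14.4% lower). With the slide as a block no member pair passed limma's test, and 2 did at an unadjusted p under 0.05.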

How the results depend on the processing

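The member counts for CREB1 alone, for GABPα with CREB1 and for the difference between the GABPα reactions stayed within 1.5 times under the alternatives tried, except where named here. With dim sequences left out, 8 members could be fitted in CREB1 alone, and all 8 stayed lower in the effect and the step, with 8 departures. With the deposited table no member passed in the difference, 0 in GABPα alone and 0 in the scaled signal, and 24 departures passed with CREB1. For GABPα alone, 11 calls became 0 with dim sequences left out, 4 with normexp, 2 in the middle placement, 17 in the inner placement, 2 with an intensity trend, 20 with the CREB1 arrays out of the fit, 5 in the middle reverse placement and 7 with the replicate block, and 0 to 17 with 1 array left out. The departure count of 1 in GABPα alone became 2 with spot medians, 3 with the trend or with dim placements at the lowest signal above background, 5 on the forward strand, 19 in the inner placement, and 0 with normexp, the deposited table, dim sequences left out, the middle placement, the reverse strand, other arrays or the block, and 0 to 1 with 1 array left out. In the middle reverse placement 1 was lower and A11G+G13C read −0.051. The majority of departures turned on the reverse strand with CREB1 (44 calls), in the middle reverse placement (27, 15 of them lower) and on the forward strand in CREB1 alone (71), and A11T+G13A turned to −0.28 on the reverse strand. Scaled calls fell to 16 with normexp and 0 without scaling, and to between 38 and 85 with 1 array left out. For mirror pairs, 17 calls in CREB1 alone became 9 with the deposited table, 1 of 1 with dim sequences left out, 10 in the middle reverse placement and 10 to 17 with 1 array left out. In GABPα alone 18 became 10 with normexp or on the forward strand, 8 with the deposited table, 1 in the middle placement, 11 with other arrays, and 1, higher, in the middle reverse placement. The pair difference between reactions passed in 10 pairs with dim sequences left out or the trend, 4 with dim placements at the lowest signal above background, 2 on the reverse strand or with other arrays, and 0 with normexp, the deposited table, the middle, forward or middle reverse probes and the replicate block, and 0 to 2 with 1 array left out. Same-numbered replicates of the 2 GABPα groups shared a slide, and the main fits left this pairing out. Deviations of same-numbered arrays correlated at −0.06 between the GABPα groups, 0.44 between GABPα alone and CREB1, and 0.06 between GABPα with CREB1 and CREB1. With 2 arrays a group, these values cannot decide whether the numbers pair the arrays. Apart from the fewer sequences that could be fitted with dim ones left out, the cause of these changes was not tested. The added alternatives, dim placements at the lowest signal above background and the middle reverse placement alone, were chosen after seeing the data, as were the pair tests in GABPα alone and between reactions. Background limits the losses of 82 members in CREB1 alone, and saturation limits the intact site there.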
